A study of Mus musculus with 12 samples.

Results

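The baseline transcriptome of the B16F10 melanoma line was described from the 3 libraries of cells that received the DMSO vehicle only, of 12 libraries in the series. These libraries were chosen by their treatment label and not by any measured value. B16F10 is a pigmented mouse melanoma line selected for its ability to colonise the lung, and the cells came from a culture collection and were grown in DMEM with serum. All cells were seeded in 6-well plates and harvested at the end of 72 h. The other 9 libraries came from the same line, in 3 groups of 3. The DAC group received the DNA methyltransferase inhibitor decitabine at 25 nM for 72 h. The SFN group received the isothiocyanate sulforaphane for 48 h, at a dose that the labels give as 5 nM. The DAC + SFN group received decitabine at 25 nM for 72 h with sulforaphane at 5 µM for the last 48 h. The study's methods give the sulforaphane dose of the combination for the single treatment too, so the labelled difference in dose is in doubt. The sources differ on the DMSO concentration of the control wells, and none is given here. The cells are 1 established line without stroma, vessels or immune cells, so the values describe cultured melanoma cells and not a tumour. The labels do not say whether the 3 replicates were separate cultures, while the study's methods describe its repeats as independent biological ones. The p-values below come from tests on the 9 treated or on all 12 libraries. They weigh an effect against the remaining spread between those samples, and none tests the spread between the 3 controls alone.

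Messenger RNA was sequenced and reads were counted per gene for 24421 gene symbols. The 3 control libraries held 21703605, 23654567 and 19310971 counts, within the range of the 12 libraries (15880957 to 27291436). Levels of different genes are compared below as TPM, which are counts divided by the exon length of the gene and scaled to a sum of 1000000 per library, and levels of 1 gene between libraries as CPM, which are counts per 1000000 with library sizes scaled by TMM. The log2 CPM of the 3 control libraries correlated with each other at 0.983 to 0.992 across genes, which are not independent replicates. Control replicate 3 stood apart in ribosomal RNA. Rn45s, the precursor of ribosomal RNA, took 0.417% of the counts in control replicate 1, 0.345% in control replicate 2 and 1.28% in control replicate 3, against 0.254% to 0.865% in the treated libraries. Control replicate 2 stood apart in a set of genes described further below. In the labels, replicate 1 of every group has a library number of 1 to 4, replicate 2 of 5 to 8 and replicate 3 of 11 to 14. Replicate number and any batch along these numbers cannot be told apart.

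Melanocytes are pigment cells that descend from the neural crest. They build melanin inside a lysosome-related organelle, the melanosome, with enzymes of the tyrosinase family, and the transcription factors MITF, SOX10 and PAX3 drive this programme. Melanomas keep it to varying degrees, and loss of it is a known feature of dedifferentiated tumours. The label of the line was checked on 5 pigment cell markers. Tyr, Dct, Pmel, Mlana and Sox10 were all expressed, which here means at least 1 CPM in each control library, and all 5 had more than 100 TPM.

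Of 24421 symbols, 11029 (45.2%) were expressed in the vehicle-treated cells and 8959 (36.7%) had no count in any of the 3 control libraries. The remaining 4433 (18.2%) were low, with at least 1 count but under 1 CPM in at least 1 control library. A gene with no count in 64669143 summed counts could have had up to 0.0464 CPM, which is the level of 3 counts, and such limits cover counting error only. Few genes carried much of the RNA: 120 genes had a mean of more than 1000 TPM and together made up 29.6% of all TPM, 1801 had 100 to 1000 TPM and 6811 had 10 to 100 TPM. The 10 highest genes held 8.88% of TPM and the 1000 highest held 60.4%.

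A listed 0 was not always read as an absence. Only reads aligned to a single place were counted, and some genes that every cell uses were listed at or near 0 while they share sequence with other places in the genome. Rpl26, a protein of the large ribosomal subunit, had 0 counts in all 3 control libraries while 65.5% of its 75-base stretches were unique in the genome. Atp6v0c, a subunit of the proton pump, and Ndufs5, a subunit of respiratory complex I, were also listed at 0, with 73.4% and 71.0% unique stretches. The glycolytic gene Pgk1, with a lower share of 37.2%, had 51387 to 72056 counts in the controls. What left Rpl26, Atp6v0c and Ndufs5 at 0 was not tested. Of the genes with no count and a gene model, 1365 of 8741 had a unique share below 80%, against 375 of 11000 expressed genes. The absences described below are not all of genes with a unique share close to 100%. The share was under 80% for 4 of 9 liver and erythroid markers, for example. It was also under 80% for 2 of 10 Y-linked and X-inactivation genes and for 1 of 9 epithelial and keratinocyte markers. Of the 8959 genes without a count, 5404 had a share of at least 99% and no exon overlap with another gene.

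The most abundant transcripts were those of translation, of iron storage and of pigment. Among the 20 genes with the highest mean TPM were 5 of the melanocyte list, namely Tyrp1, Pmel, Dct, Gpnmb and Mlana. The others were mostly ribosomal proteins, elongation factors, chaperones and glycolytic enzymes. Ftl1, the light chain of ferritin, came first with 18224, 19793 and 18779 TPM in control replicates 1, 2 and 3. Eef1a1, an elongation factor of translation, came second with a mean of 15566 TPM. Both are uncertain, since only 42.9% and 55.8% of their stretches were unique. Hsp90ab1, a heat shock protein, had a mean of 5240 TPM and Pgk1, a glycolytic enzyme with a unique share of 37.2%, had 4793 TPM.

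Tyrp1, the tyrosinase-related protein that acts late in the synthesis of brown-black melanin, was the third most abundant transcript of the cells. It had 17494, 15004 and 13820 TPM in control replicates 1, 2 and 3, a mean of 15439 ± 1876 TPM (SD, n = 3). Pmel, which forms the fibrils on which melanin is laid down, had 9305, 8118 and 7760 TPM. Replicate 1 was the highest of the 3 for both genes and replicate 3 the lowest. Dct, the dopachrome tautomerase, had 4965, 4007 and 4124 TPM. Mlana, a membrane protein of the melanosome, had 4128, 3943 and 3138 TPM. Gpnmb, a melanosomal and lysosomal glycoprotein, was ordered differently, with 3824, 4739 and 3562 TPM and its highest value in replicate 2. Tyr, the enzyme of the rate-limiting first step, was far lower than its relatives, with 477.6, 353.5 and 382.2 TPM, a mean of 404 ± 65.0 TPM (SD, n = 3). Tyrp1 ranked 3, Dct 9 and Tyr 351 among all genes by mean TPM.

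A short sequence recurs before the start sites of some of these genes. The 250 bases before the RefSeq start of 4 of them are printed here because they hold TCATGTG, the core of the M-box that MITF and related factors bind, which is given in capitals. Each sequence reads 5′ to 3′ on the strand of the gene, from build GRCm38.p6, and the base just before the start is position -1.
Tyr (chr7:87493513-87493762, minus strand): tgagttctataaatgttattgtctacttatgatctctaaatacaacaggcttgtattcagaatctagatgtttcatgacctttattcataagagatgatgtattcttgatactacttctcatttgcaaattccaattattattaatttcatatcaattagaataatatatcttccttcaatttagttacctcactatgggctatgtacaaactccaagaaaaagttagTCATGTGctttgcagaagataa
Tyrp1 (chr4:80833963-80834212, plus strand): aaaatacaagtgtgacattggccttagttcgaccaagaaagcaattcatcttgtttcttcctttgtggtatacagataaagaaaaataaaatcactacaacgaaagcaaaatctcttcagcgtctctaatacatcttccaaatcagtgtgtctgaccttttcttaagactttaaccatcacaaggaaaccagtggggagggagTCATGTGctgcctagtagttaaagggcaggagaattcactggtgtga
Dct (chr14:118052247-118052496, minus strand): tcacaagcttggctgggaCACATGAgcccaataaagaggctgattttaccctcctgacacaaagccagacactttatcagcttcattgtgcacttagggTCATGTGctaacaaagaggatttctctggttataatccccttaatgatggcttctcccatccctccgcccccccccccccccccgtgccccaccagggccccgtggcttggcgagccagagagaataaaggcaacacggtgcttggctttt
Slc24a5 (chr2:125067877-125068126, plus strand): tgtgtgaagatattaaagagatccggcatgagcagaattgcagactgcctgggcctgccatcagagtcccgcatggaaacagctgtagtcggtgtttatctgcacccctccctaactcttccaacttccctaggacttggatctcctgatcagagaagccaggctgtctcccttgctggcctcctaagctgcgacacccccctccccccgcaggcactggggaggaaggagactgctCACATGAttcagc

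The heptamer lay at positions -22 to -16 before Tyr, at -47 to -41 before Tyrp1, and at -151 to -145 before Dct on the gene's own strand. A further match before Dct, at -232 to -226, and the match before Slc24a5, at -13 to -7, were on the opposite strand. Of 22 genes of the melanocyte list, 15 had a RefSeq entry of this kind, and 7 of the 15 held TCATGTG on either strand, the others being Mc1r, Trpm1 and Tspan10. TCATGTG was in 870 of 27025 promoters of the same length (3.22%). The shorter CATGTG, which every TCATGTG contains, was in 8 of the 15, with Oca2 in addition, and in 3307 of all promoters (12.2%). The genes without an entry were Pmel, Mlana, Sox10, Pax3, Slc45a2, Gpr143 and Rab38. A match of letters is a description of the sequence and not a measured binding site.

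Of the 22 genes of pigment synthesis and melanocyte identity, 21 were expressed, 18 had more than 100 TPM, and together the list held 4.25% of all TPM. The regulators were moderate in level. Sox10 had 540.1, 588.5 and 496.9 TPM, Mitf had 261.9, 197.4 and 202.5 TPM and Pax3 had 126.2, 104.8 and 118.2 TPM. The order Sox10, Mitf, Pax3 was the same in each of the 3 libraries, and the ranges of the 3 genes did not overlap. Among the transporters of the melanosome, the exchanger Slc24a5 had a mean of 1233 ± 183 TPM and Slc45a2 had 1110 ± 91.9 TPM, which differed by less than their spread, while the channel Oca2 had 49.0 ± 11.4 TPM (SD, n = 3 each). Part of the exons of Slc24a5 (39.5%) overlap another gene. Rab38, a GTPase that brings enzymes to the melanosome, had a mean of 965 TPM. The 3 partners that carry melanosomes along actin were all present, with means of 345 TPM for Mlph, 258 TPM for Rab27a and 163 TPM for Myo5a.

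The receptors of this list spanned the widest range. Mc1r, the receptor of melanocyte-stimulating hormone, had 273.9, 271.9 and 229.6 TPM. Kit, the receptor of stem cell factor on which melanocyte precursors depend, had only 2.31, 1.34 and 2.18 TPM, and it was the lowest of the expressed members. Ednrb, the endothelin receptor of melanoblasts, had 0 counts in all 3 control libraries, and all of its sequence is unique. In the treated libraries Ednrb had at most 0.0467 CPM. The ligands Edn1 and Edn3 of endothelin receptors were also without a count, and the receptor Ednra had a mean of 0.032 TPM. Kitl, the ligand of Kit, had 2.03 TPM and Pomc, the precursor of melanocyte-stimulating hormone, 3.06 TPM.

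**Figure D1:**
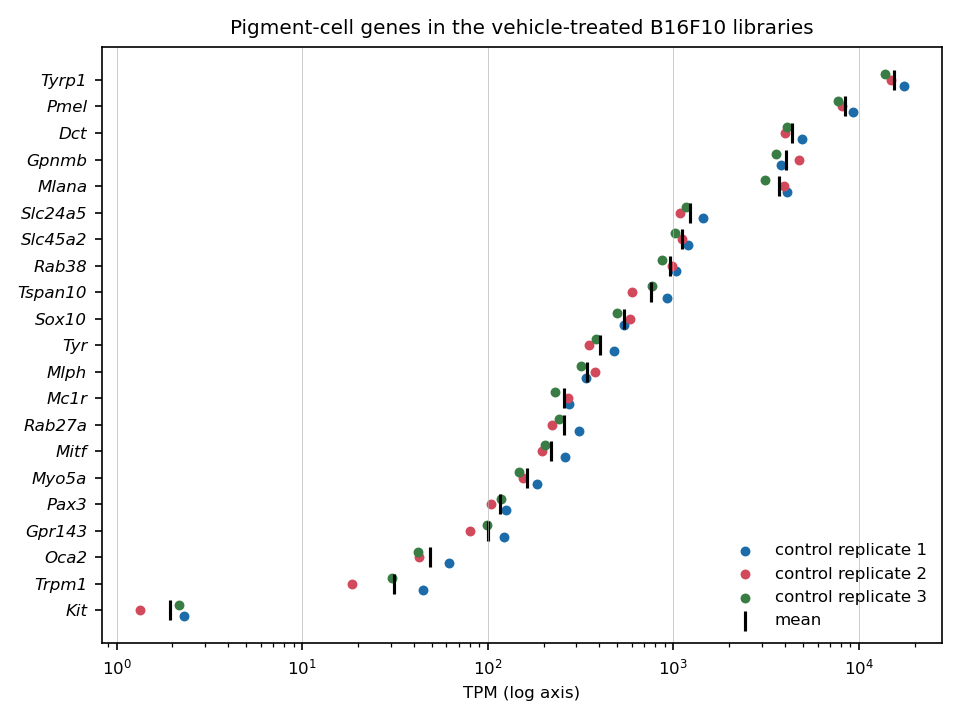
Level in TPM (log axis) of the 21 expressed genes of the melanocyte list, with 1 point per control replicate and a bar at the mean of 3. Tyrp1 is at the top with 13820 to 17494 TPM and Kit at the bottom with 1.34 to 2.31 TPM.

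The order of the 3 libraries recurred through this programme. Replicate 1 held the highest CPM in 17 of the 21 expressed genes and replicate 3 in none, while over all 11311 genes with a mean of at least 1 CPM replicate 1 was highest in 3439 (30.4%). In the means of the 9 treated libraries taken by replicate number, which did not enter that count, replicate 1 was again highest in 17 of the 21. The differences were small. The median spread of the list, as highest minus lowest log2 CPM, was 0.35, and it exceeded 1 in 1 gene. That gene was Trpm1, a cation channel of melanocytes and retina, with 3909, 1795 and 2355 counts. The test of the replicate number in the treated libraries, which is set out further below, called 19 of the 21 genes, against 21.2% of all genes tested.

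Regulators of the neural crest and of epithelial-mesenchymal transition were present in part. Of 20 genes on this list, 9 were expressed, 6 were low and 5 had no count. Ets1, a transcription factor of the crest, was the highest with 281.1, 282.3 and 291.8 TPM and a spread of only 0.06 on the log2 CPM scale. Tfap2a had a mean of 67.8 TPM, the inhibitor of DNA binding Id3 60.2 TPM and Erbb3, a neuregulin receptor, 32.5 TPM. The 2 members of the ZEB family were split. Zeb2 had 34.0, 38.6 and 35.4 TPM, while Zeb1 had a mean of 0.037 TPM. Snai2 (5.44 TPM) was likewise expressed and Snai1 (0.113 TPM) was low. Foxd3, Sox2, Twist1, Twist2 and Msx1 had no count in any control library, and Ngfr, the nerve growth factor receptor of neural crest cells, had 0.414 TPM.

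Genes shared with Schwann cells and other glia were also measured. Of 10 glial markers, 7 were expressed and none was without a count. S100b, a calcium-binding protein used as a marker of both melanocytes and Schwann cells, had 319.5, 183.9 and 272.2 TPM. Fabp7, a fatty acid binding protein, had 66.4, 25.2 and 45.2 TPM. Replicate 2 was the lowest of the 3 libraries for both genes, and the spread exceeded 1 in 4 of 7 members. Cdh19, a cadherin of Schwann precursors, was more even, with 84.1, 75.5 and 73.0 TPM. Egr2, a transcription factor of myelinating Schwann cells, was low, at 0.246 TPM.

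Most markers of other cell types had no count or were low. In bulk samples a low level cannot tell few cells of a type from little RNA per cell. Of 9 epithelial and keratinocyte markers 8 had no count, including Epcam, Krt8, Krt18 and Krt14, and Cdh1 was low with 0.896 TPM. Of 9 T cell markers 5 had no count and 1 was expressed, Lck with 3.64 TPM. The defining genes Cd3d, Cd3e, Cd4 and Cd8a were at 0. None of 6 B cell markers was expressed. Of 10 macrophage and leukocyte markers 6 had no count (Csf1r, Adgre1, Itgam, C1qa, C1qb and Tyrobp), Ptprc had a mean of 0.0097 TPM, and the 2 expressed ones were Cd68 at 9.65 TPM, a lysosomal protein, and Lyz2 at 4.58 TPM. Of 7 endothelial markers 1 was expressed, Vwf at 0.748 TPM, 3 were low, and Cdh5, Kdr and Cldn5 had no count. Of 9 liver and erythroid markers none was expressed, 3 were low and 6 had no count (Alb, Apoa1 and the 4 haemoglobin genes). A unique share under 80% applies to 4 of these 9 markers.

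Fibroblast, neuron and muscle lists each held members above this level. Tubb3, a tubulin known from neurons, had 302.7, 465.3 and 274.2 TPM, while Snap25, Nefl and Stmn2 had no count. Des, an intermediate filament of muscle, had 12.6, 13.02 and 14.5 TPM, while Myod1 and Myog were at 0. Col1a1, which encodes a chain of type I collagen, had 40.6, 8.45 and 176.2 TPM. It was high in replicate 3 and low in replicate 2, and its partner chain Col1a2 had a mean of 1.07 TPM. Of the other fibroblast markers, Pdgfrb had 9.98 TPM and Postn 8.49 TPM, Col3a1 had 0.151 TPM, and Dcn and Lum had no count. Of the 5 fibroblast markers with a mean of at least 1 CPM, 4 were highest in replicate 3.

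**Figure D2:**
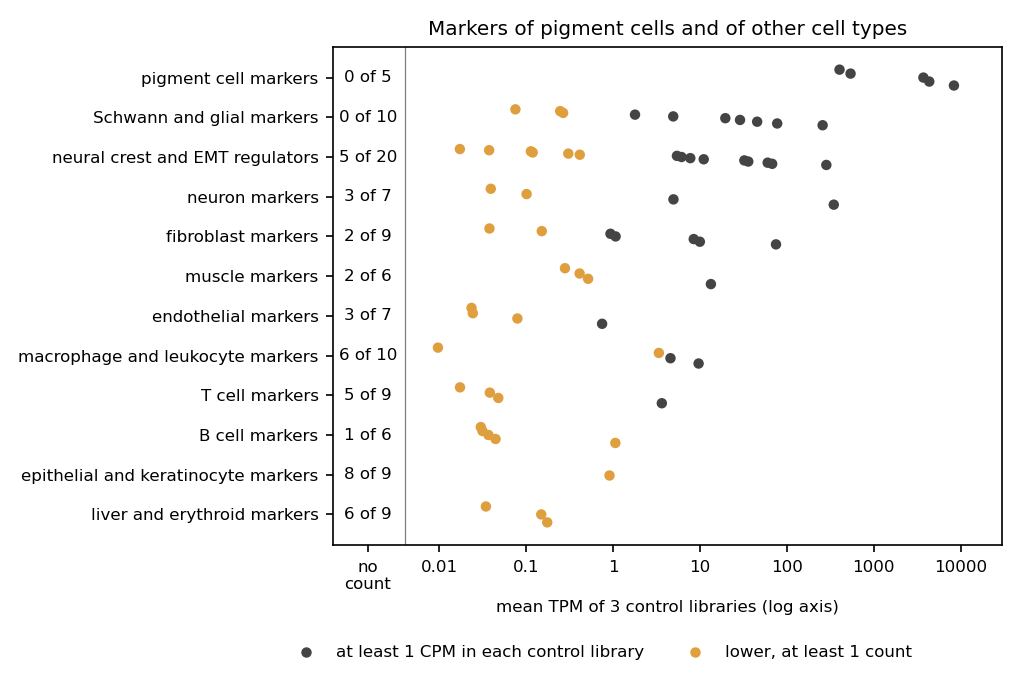
Mean TPM of 3 control libraries (log axis) for the markers of pigment cells and of 11 other groups, with 1 point per gene, dark where the gene had at least 1 CPM in each control library. The column at the left gives the members with no count, which is 0 of 5 for pigment cells and 8 of 9 for epithelial and keratinocyte markers.

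Receptor tyrosine kinases differed widely in level. Of 50, 23 were expressed, 17 were low and 10 had no count. Met, the receptor of hepatocyte growth factor, was the highest with 879.0, 601.1 and 736.4 TPM, while its ligand Hgf had no count. Then came the collagen receptor Ddr2 with a mean of 110 ± 13.6 TPM, the Wnt-binding Ryk with 106 ± 3.26 TPM and Ddr1 with 96.4 ± 8.24 TPM (SD, n = 3 each), whose values differed by about as much as the libraries did. Axl, a receptor of the TAM family, had 9.18, 8.44 and 21.4 TPM and stood highest in replicate 3. Egfr, Kdr, Csf1r, Flt3, Alk, Ros1, Ret and Ntrk2 were at or below 0.017 TPM. All sequence of Egfr is unique, and it had no count in the 3 control libraries.

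Genes of the melanoma driver and tumour suppressor list were nearly all expressed, 35 of 38. Ctnnb1, which encodes beta-catenin, had 1195, 1108 and 1129 TPM and Akt1, a kinase of the PI3K pathway, had 741.1, 881.1 and 754.6 TPM. Both varied by under 0.31 on the log2 CPM scale. Braf had 22.5, 19.03 and 23.6 TPM and Trp53 126.1, 162.9 and 131.1 TPM. The cell cycle kinase Cdk4 had a mean of 431 TPM and its relative Cdk6 1.18 TPM. Of the D-type cyclins, Ccnd2 had 334 TPM, Ccnd1 246 TPM and Ccnd3 121 TPM. Ccnd1 had its highest value, 340.5 TPM, in replicate 2, where the other libraries had 182.7 and 215.2 TPM.

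The 2 members of the list without a count were neighbours on chromosome 4. Cdkn2a (chr4:89274471-89294653, minus strand), which encodes the cyclin-dependent kinase inhibitor p16 and ARF, and Cdkn2b (chr4:89306299-89311039, minus strand), which encodes p15, had 0 counts in every one of the 12 libraries, with a unique share of 100%. Mtap, the phosphorylase gene that lies next to them at chr4:89137122-89181081, had 338.3, 447.7 and 359.3 TPM. Klhl9 (chr4:88718292-88722465), on the same side, had 104.0, 92.7 and 109.5 TPM. On the other side, Dmrta1 (chr4:89679436-89694772) had 3, 0 and 0 counts and Elavl2 had none. The positions are those of build mm10.

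No count came from the male-specific genes of the Y chromosome, Ddx3y, Eif2s3y, Kdm5d, Usp9y, Uty, Zfy1, Zfy2 and Sry. The list of Y-linked and X-inactivation genes to which they belong has 2 of 10 members with a unique share under 80%. Of 42 protein-coding symbols placed on the Y chromosome 41 had no count, and the exception, Erdr1, named here after its values were seen, has a unique share of 41.9%. Xist, the RNA that coats an inactive X chromosome, had 3, 1 and 0 counts in the 3 control libraries. Of the coding genes on the X chromosome 39.9% were expressed, against 41.2% to 62.4% on the autosomes.

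The cells had the transcripts of growing cells. All 22 proliferation genes were expressed and 21 had more than 100 TPM. Rrm2, a subunit of ribonucleotide reductase, had 795.0, 893.7 and 790.0 TPM, Top2a, a topoisomerase of dividing cells, had 343.4, 311.7 and 310.6 TPM, and Mki67 had 199.7, 171.0 and 187.4 TPM. None of the 22 had a spread above 1. Glycolysis was high, with 7 of 29 genes above 1000 TPM. Ldha, the lactate dehydrogenase of muscle and tumours, had 2597, 1602 and 2503 TPM and Aldoa, an aldolase, had 3440, 2557 and 3312 TPM. Replicate 2 was the lowest library for both, and for 19 of the 21 glycolytic genes compared, against 37.3% of all genes compared. Eno1 was listed at 0.012 TPM with a unique share of 54.3% and is not read as low.

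Lysosomal genes were expressed in 24 of 25 cases, with 17 above 100 TPM. The protease gene Ctsd had 2701, 2789 and 2467 TPM, Lamp1, a membrane protein of lysosomes, had 1133, 1086 and 1049 TPM, and Psap, the precursor of saposins, had 1057, 1082 and 1051 TPM. No lysosomal gene had a spread above 1. Ctss, a protease of antigen-presenting cells, was the 1 member that was low, at 0.135 TPM.

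Antigen presentation was uneven. Of 18 genes of the class I pathway 13 were expressed. The chaperones Calr, Pdia3 and Canx had means of 2511, 1397 and 1125 TPM, and B2m, the light chain of class I molecules, had 1046, 832.1 and 1119 TPM. The heavy chains were much lower. H2-K1 had 64.0, 17.1 and 74.8 TPM, with replicate 2 apart from the others, and H2-D1 had 47.3, 33.5 and 42.4 TPM. The inducible proteasome subunits Psmb8 and Psmb9 were nearly silent, with 0, 1 and 9 counts and with 3, 3 and 13 counts. The transporter Tap1 had a mean of 5.56 TPM. Of 9 class II genes 1 was expressed, H2-DMb1 at 8.82 TPM with a unique share of 78.8%, and Ciita, the master regulator of class II, had no count.

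Receptors and sensors of the interferon response were expressed while interferons were not. Of 27 genes on this list 23 were expressed. Ifnar1 had 72.9, 56.2 and 63.1 TPM and Ifngr2 83.5, 72.4 and 72.2 TPM. The adaptor Tmem173, known as STING, had a mean of 76.0 TPM and the sensor Mb21d1, known as cGAS, 10.8 TPM. Ifng and Ifna4 had no count and Ifnb1 had 1 count in all. The interferon-stimulated genes were not silent and varied between the libraries. Isg15 had 33.5, 16.97 and 86.3 TPM and Irf7 had 2.43, 0.688 and 5.86 TPM. Replicate 3 was the highest and replicate 2 the lowest for both.

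Of 46 chemokine and chemokine receptor genes 29 had no count and 5 were expressed. Cxcl10 and Ccl5, which attract T cells, led with means of 18.5 ± 3.37 and 11.8 ± 4.08 TPM (SD, n = 3 each), and Cxcr4 and Ccl2 had no count. Of 16 checkpoint ligands 7 were expressed. Lgals9, which encodes galectin-9, had 92.7, 59.3 and 130.8 TPM, and Cd274, which encodes PD-L1, had 6.56, 4.51 and 9.74 TPM. Replicate 2 was the lowest library in all 7, against 37.3% of all genes compared. Cd80, Cd86 and Pdcd1lg2 had at most 0.104 TPM, and Ido1, Fasl and Cd70 had no count.

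The level of the machinery on which the study's compounds act was read in the same libraries. Of 15 genes of DNA methylation 13 were expressed. Uhrf1, which recruits the maintenance enzyme to newly made DNA, had 371.7, 422.2 and 373.5 TPM, and Dnmt1, the maintenance enzyme itself, had 191.6, 209.9 and 178.5 TPM. The de novo enzymes were lower, with means of 20.7 ± 1.91 TPM for Dnmt3a and 7.31 ± 1.00 TPM for Dnmt3b (SD, n = 3 each). Their cofactor Dnmt3l had 0.042 TPM. Of the genes that take up and process decitabine, the activating kinase Dck had 55.5, 45.8 and 53.7 TPM and the transporter Slc29a1 had a mean of 51.2 TPM. The inactivating deaminase Cda had 2.46 TPM. The concentrative transporters Slc28a1, Slc28a2 and Slc28a3 were each below 0.03 TPM.

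Of 29 genes of the NRF2 pathway, the antioxidant response that sulforaphane is known to induce, 28 were expressed without treatment. The factor itself, Nfe2l2, had 153.8, 180.6 and 149.9 TPM and its inhibitor Keap1 had 37.4, 37.5 and 40.3 TPM. Hmox1, haem oxygenase, had 312.2, 311.9 and 283.3 TPM and Txn1, thioredoxin, 1121, 1221 and 1217 TPM. Nqo1, a quinone reductase widely used as a readout of the pathway, was lower at 17.7, 20.1 and 21.6 TPM. Gsta3, a glutathione transferase, was the lowest member at a mean of 0.968 TPM.

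Genes that many tissues silence with the help of DNA methylation were mostly low. Of 25 cancer-testis and germline genes 14 had no count and 1 was expressed, the bromodomain gene Brdt with 41, 39 and 35 counts. Ddx4, an RNA helicase of germ cells, was just below the limit with 21, 19 and 33 counts. Of the Mage genes on the list, Magea1 had at most 4 counts in a library, Magea2 had at most 1 and the others had none, and 8 of the 25 have a unique share under 80%. Of 25 imprinted genes, which are expressed from 1 parental copy, 10 had no count: Igf2, Peg3, Meg3, Magel2, Snrpn, Nnat, Zim1, Ndn, Grb10 and Zrsr1. Others were abundant. Gnas had 437.6, 380.2 and 406.6 TPM, the zinc finger gene Plagl1 267.1, 243.5 and 287.0 TPM, and Peg10 83.3, 92.4 and 103.7 TPM. H19, a non-coding RNA that shares its locus with Igf2, had 37, 5 and 209 counts, and no gene with a mean of at least 1 CPM varied more between the control libraries.

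Of 18 cadherin and adhesion genes 10 were expressed. The neural cadherin Cdh2 had 63.4, 62.1 and 65.0 TPM and the epithelial cadherin Cdh1 a mean of 0.896 TPM. Mcam, the melanoma cell adhesion molecule, had 164.7, 342.2 and 252.4 TPM. Of 26 integrin genes 15 were expressed, led by the common subunit Itgb1 with 607.3, 612.7 and 600.2 TPM, and the leukocyte integrins Itgam, Itgax and Itgad had no count. Of 27 metalloproteinases and inhibitors 8 were expressed. The inhibitor Timp2 had a mean of 232 TPM and the membrane-bound Mmp14 of 155 TPM, while Mmp2 had 3.43 TPM and Mmp9 0.050 TPM.

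Whole families divided into those used by nearly every cell and those reserved for other tissues. All 77 mitochondrial ribosomal proteins were expressed, as were 43 of 45 NADH dehydrogenase subunits, 45 of 50 proteasome subunits and 312 of 368 Zfp zinc finger genes. Cytosolic ribosomal proteins held 10.3% of all TPM, with 72 of 79 expressed, but 58 of the 79 have a unique share under 80% and their levels are uncertain. At the other end, 1106 of 1125 olfactory receptor symbols, 322 of 331 vomeronasal receptors, 58 of 61 defensins and 27 of 28 kallikreins had no count. Of these families, 80 olfactory receptors, 103 vomeronasal receptors and 12 defensins have a unique share under 80%. None of 53 keratin-associated proteins and none of 20 major urinary proteins had a count, and 9 of the 53 and 15 of the 20 have a unique share under 80%. The highest olfactory symbol by TPM was the pseudogene Olfr856-ps1 with 19, 21 and 31 counts. Of 68 histone symbols 4 were expressed, 36 were low and 28 had no count. Most transcripts of replication-dependent histones are known to lack a poly(A) tail, these libraries were made from mRNA, and 46 of the 68 symbols have a unique share under 80%. The part of these in the low counts was not tested.

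**Figure D3:**
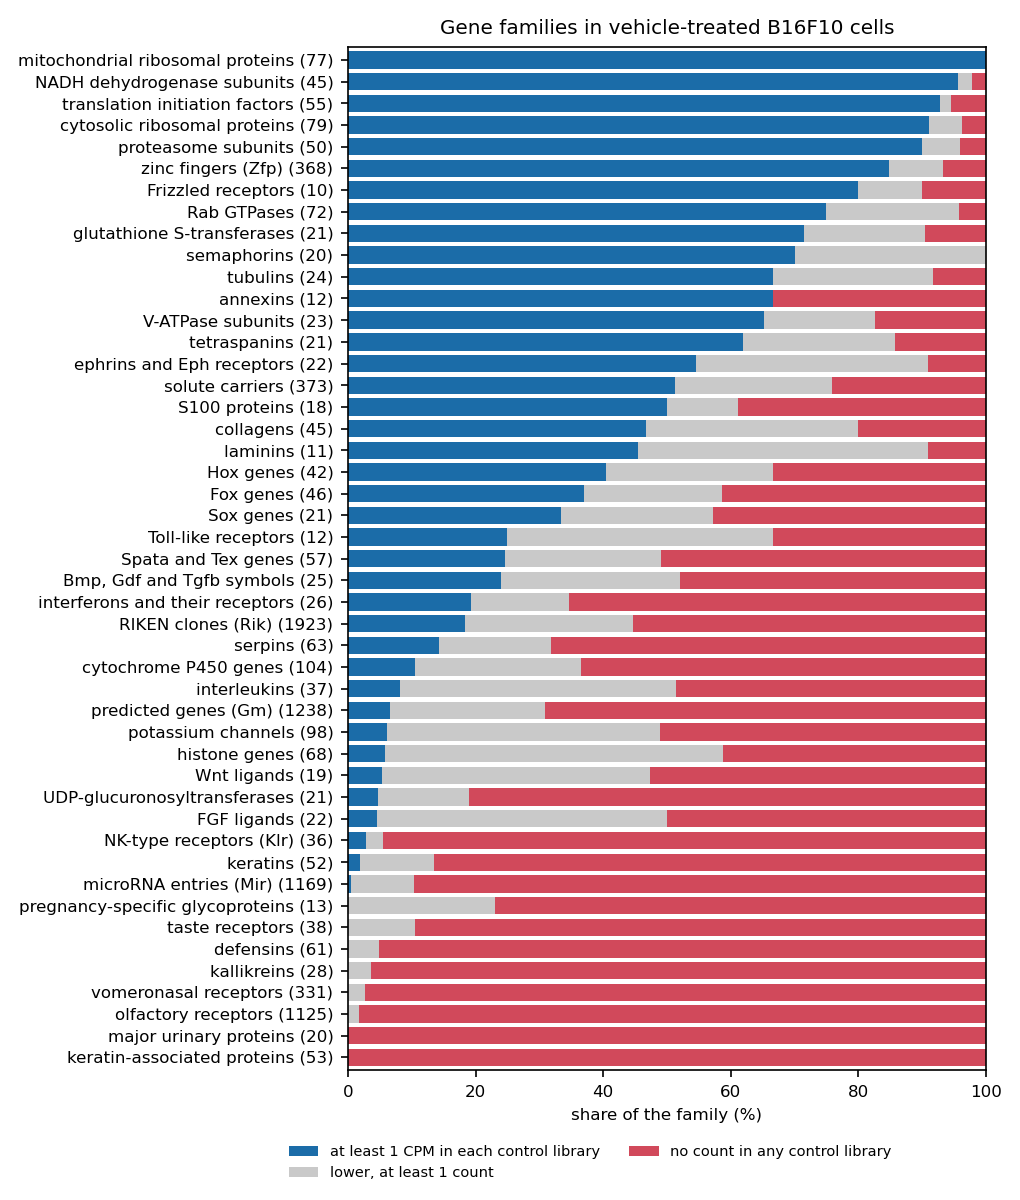
Share of each gene family, in percent of its symbols (number in brackets), with at least 1 CPM in each control library, with lower counts, and with no count in any control library. Mitochondrial ribosomal proteins are expressed in 77 of 77 cases, and keratin-associated and major urinary proteins have no count in 53 of 53 and 20 of 20 cases.

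Between these ends, 1 or a few members carried a family. Of 52 keratins 1 was expressed, Krt80, with 114, 380 and 145 counts. Of 19 Wnt ligands 1 was expressed, Wnt5b at 2.24 TPM, while 8 of 10 Frizzled receptors were, led by Fzd7 at 92.8 TPM. Of 22 FGF ligands only Fgf1 was, at 13.01 TPM, and Fgf2 had no count. All 5 expressed symbols of the interferon family were receptors. Among 104 cytochrome P450 genes 11 were expressed and Cyp2j6, an epoxygenase, stood at 234.3, 200.3 and 189.9 TPM. Serpinh1, a chaperone of collagen, had 1462, 1599 and 1588 TPM, and the next serpin by mean, Serpinb6a, had 59.5 TPM. Foxr2, a forkhead gene on the X chromosome, had 179.3, 137.3 and 187.2 TPM, close to Foxk2 with a mean of 169 TPM.

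The Hox genes, which specify position along the body axis, were expressed in 17 of 42 cases with no member above 100 TPM. Hoxa10 was the highest with 47.6, 44.4 and 40.6 TPM. Hoxb9 had 18.7 TPM and Hoxd13 13.9, 14.7 and 18.7 TPM. The clusters were not used evenly, and Hoxc8 to Hoxc13 and Hoxd8 to Hoxd11 had no count. Of 21 Sox genes 7 were expressed, where Sox10 had 542 TPM, Sox11 58.9 TPM and Sox9 11.1 TPM.

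How far the repeats differed was measured for 11311 genes with a mean of at least 1 CPM in the controls, as the highest minus the lowest log2 CPM with a prior count of 2. The median of this spread was 0.23 and its 90th percentile 0.64. It exceeded 1, a 2-fold difference, in 451 genes (3.99%), and exceeded 2 in 85. By level, the share was 14.8% of genes between 1 and 10 CPM, 1.46% between 10 and 100 CPM, 0.916% between 100 and 1000 CPM and 2.60% above 1000 CPM, where it rests on 2 of 77 genes. The common biological coefficient of variation was 12.7%. Replicate 2 was the lowest library in 343 of the 451 genes (76.1%) and replicate 3 the highest in 299 (66.3%). Without control replicate 2, 150 genes had a spread above 1, and without control replicate 3, 224 genes did.

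**Figure D4:**
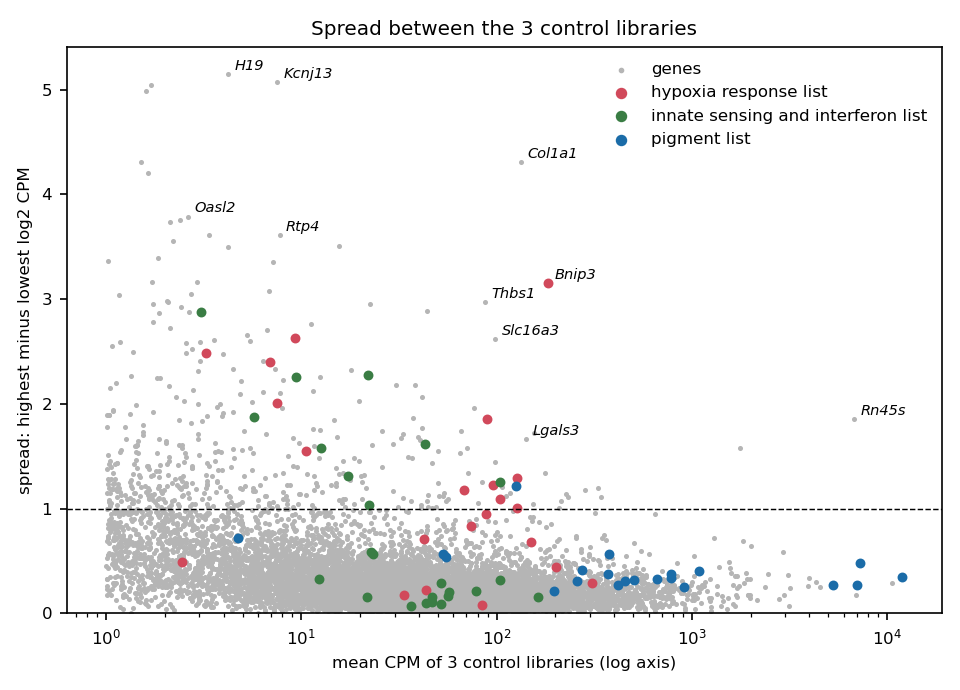
Spread between the 3 control libraries (highest minus lowest log2 CPM) against mean CPM (log axis), with 1 point per gene and 3 gene lists in colour. H19 and Kcnj13 are at the top with 5.15 and 5.07, 12 of 22 hypoxia genes lie above the dashed line at 1, and 1 of 21 genes of the melanocyte list does.

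The 20 widest were H19, Kcnj13, Aire, 1500015O10Rik, Col1a1, Oas2, Ttll11, Oasl2, Map3k7cl, Elfn1, Rtp4, Mx2, Atp7b, Col8a1, Igtp, Pde1a, Ifi44, Stc1, Sept4 and Rgs11. Oas2, Oasl2, Rtp4, Mx2, Igtp and Ifi44 among them are known interferon-stimulated genes. Oas2 had 1.06, 0.086 and 3.39 CPM and Rtp4 5.70, 1.25 and 16.3 CPM, so replicate 3 was highest and replicate 2 lowest. Kcnj13, a potassium channel of pigmented epithelium and melanocytes, had 14.5, 0.344 and 7.65 CPM. That value is uncertain, since 49.1% of its exons overlap another gene and the strand setting of the counting is not given in the sources used here. Col1a1 had 72.1, 15.6 and 311.5 CPM, and Col8a1, another collagen, 9.20, 2.97 and 34.7 CPM.

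Among genes above 50 CPM the widest were Col1a1, Bnip3, Thbs1, Slc16a3, Ifi27, Pdk1, Rn45s, Aldoc, Neat1 and Lgals3. Bnip3, a mitophagy receptor induced by low oxygen, had 248.4, 30.5 and 271.6 CPM, with a unique share of 72.5%. Slc16a3, an exporter of lactate, had 132.1, 22.9 and 140.5 CPM, and Pdk1, which holds pyruvate back from mitochondria, had 119.4, 32.9 and 115.2 CPM. In these 3 genes replicates 1 and 3 lay close together and replicate 2 was several times lower. Lgals3, which encodes galectin-3, ran the other way with 78.2, 248.1 and 100.4 CPM. At the other extreme, Prpf38b, a splicing factor, had 100.3, 100.2 and 100.1 CPM, and Csnk1e, Zfp704, Ambra1, Ibtk, Cpd, Ldah, Tmco1, Lrba and Mrpl24 also stayed within 0.015 log2 CPM.

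Genes of the hypoxia response varied widely between the controls, with a median spread of 1.05, close to the 1.07 of the 7 glial markers compared. Of 22 hypoxia genes compared, 12 had a spread above 1, against 3.99% of all genes. Control replicate 2 was the lowest in 21 of the 22, against 37.3% of all genes. The median log2 deviation of the 22 genes from the mean of the controls was 0.26 in replicate 1, -0.66 in replicate 2 and 0.36 in replicate 3. Vegfa, an angiogenic growth factor, had 104.4, 42.8 and 100.2 TPM. In the means of the treated libraries by replicate number, 20 of the 22 were lowest in replicate 2, against 38.25% of all genes. Those means pool 3 groups, and the DAC + SFN libraries on their own did not all follow them. There replicate 1 was the lowest for Bnip3 with 44.6, 58.3 and 90.7 CPM, for Slc16a3 with 34.19, 35.48 and 48 CPM and for Pdk1 with 48.71, 48.99 and 69.9 CPM. Of 24 genes of innate sensing and interferon signalling 9 had a spread above 1, 14 were highest in control replicate 3 and 16 lowest in replicate 2. Of all genes compared, 31.5% were highest in control replicate 3 and 37.3% lowest in control replicate 2. Collagens were highest in control replicate 3 in 18 of 22 cases, and in 11 of 22 in the treated means. Rn45s was also highest in control replicate 3, with 4167, 3512 and 12679 CPM, and its part in these differences was not tested.

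Genes of protein synthesis had the opposite order, with small differences. Of 72 cytosolic ribosomal proteins compared, 58 were highest in control replicate 2 and 57 in the treated mean of replicate 2, against 4308 of 11311 (38.1%) of all genes in control, and no member had a spread above 1. The 7 expressed subunits of the TCP1 chaperonin were highest in replicate 2 in both. Tubulins were highest there in 12 of 17 cases in control and in 14 of 17 in the treated means.

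The replicate number was then tested in the 9 treated libraries, which had not been used to measure the spread. edgeR's quasi-likelihood F-test with Benjamini-Hochberg adjustment called 2451 of 11584 genes tested (21.2%) at an adjusted p under 0.05. Of the 451 genes with a wide spread between controls, 446 could be tested and 290 (65.0%) were called, against 19.3% of the 10847 genes with a spread of at most 1. The same replicates were highest and lowest in control and treated means in 269 of the 446 (60.3%), against 38.9% over all genes compared. The count of 2451 was 4066 without replicate 3 of DAC, 1286 without replicate 2 of DAC + SFN, and 1423, 1060 and 1417 without replicate 1, 2 or 3 of SFN. The share of the wide-spread genes called lay between 51.7% and 67.1% when 1 library was left out.

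Some genes kept their order in the means of the treated libraries. Col1a1 in the means of the treated replicates 1, 2 and 3 had 71.8, 19.6 and 282.4 CPM, close to the control values above (adjusted p = 1.95e-07). H19 had 0.777, 0.112 and 5.72 CPM (adjusted p = 7.64e-06) and Thbs1, a matrix glycoprotein, had 70.8, 53.4 and 242.8 CPM (adjusted p = 5.34e-07). Lgals3 was highest in replicate 2 in every group (adjusted p = 9.71e-07). Not all followed. Aire (adjusted p = 0.146), Sept4 (adjusted p = 0.26) and Rgs11 (adjusted p = 0.056) were not called in the treated libraries. Sept4 and Rgs11 were still highest in replicate 3 and lowest in replicate 2 in the treated means, as in the controls. Rgs11 was called without DAC replicate 3 (adjusted p = 0.028) and without any 1 of the DAC + SFN libraries (adjusted p = 0.0108 to 0.0486). It was also called by the DESeq2 likelihood ratio test (adjusted p = 0.0351) and without the filter on low counts (adjusted p = 0.00094). Aire was called only without that filter (adjusted p = 0.0394). Stc1 (adjusted p = 0.0132), Bnip3 (adjusted p = 0.027), Slc16a3 (adjusted p = 0.0133) and Pdk1 (adjusted p = 0.0136) were called. None of these 4 was called by the DESeq2 likelihood ratio test (adjusted p = 0.0719 to 0.174), without DAC replicate 2 (adjusted p = 0.0559 to 0.108) or without SFN replicate 2 (adjusted p = 0.0586 to 0.13). Rn45s, which was highest in control replicate 3, was highest in replicate 2 in the treated means. Except where DESeq2 is named, these p-values come from the same edgeR test.

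**Figure D5:**
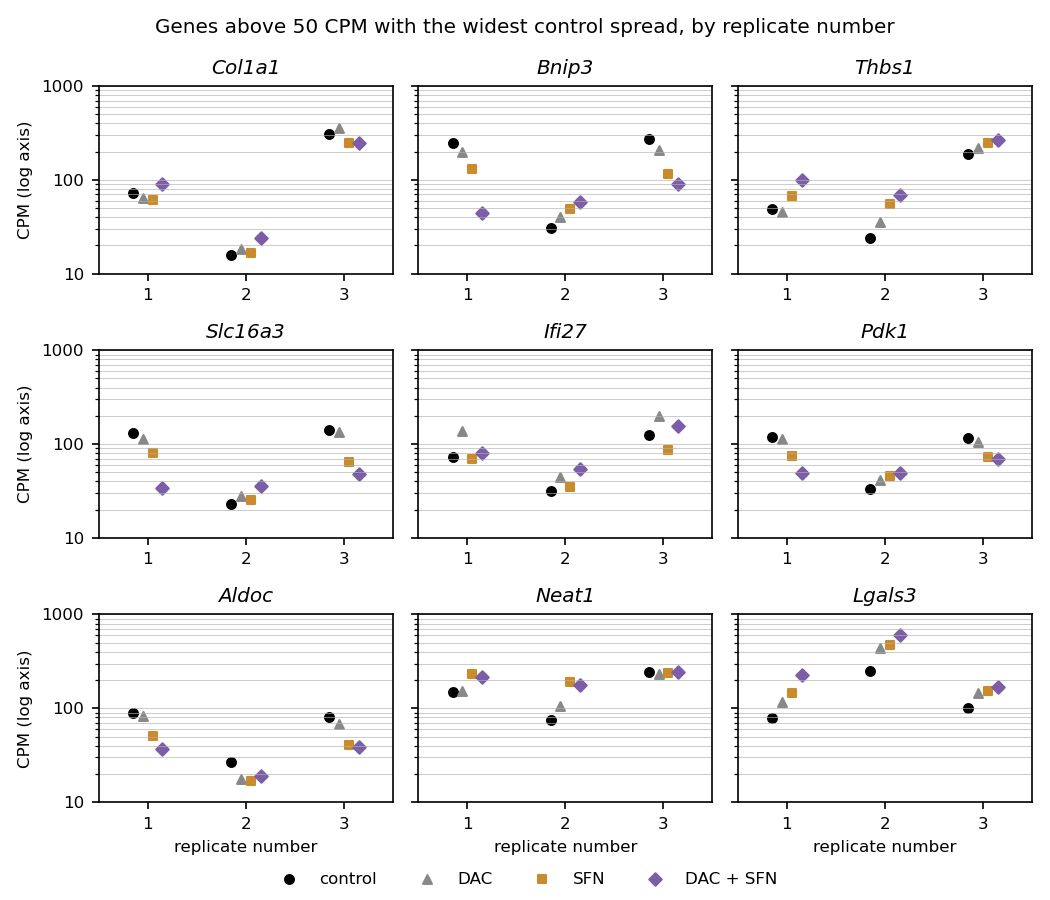
CPM (log axis) by replicate number in 4 groups for the 9 genes other than Rn45s above 50 CPM with the widest spread between controls, with 1 point per library. Col1a1 is lowest in replicate 2 and highest in replicate 3 in each group, and Lgals3 is highest in replicate 2 in each group.

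The vehicle-treated level was also set against the mean of the 3 treated groups in all 12 libraries, with the replicate number as a block. The edgeR quasi-likelihood test with Benjamini-Hochberg adjustment called 1037 of 11638 genes (8.91%) higher in the controls and 1262 (10.8%) lower. The difference was below 2-fold for most of them, and 8 higher and 111 lower genes passed with more than 2-fold. The calls rest on the block: without it 46 genes were called, 10 higher and 36 lower in the controls. Without control replicate 1, 971 genes were called, and without control replicate 2, 776 were.

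Of 21 pigment genes tested, 6 were higher in the controls and 3 lower, against the 8.91% and 10.8% of all genes. Of the 5 markers only Pmel was called, with 5776, 5240 and 4791 CPM in the controls and a mean of 4471 CPM in the treated libraries (log2 difference treated minus control -0.26 ± 0.080 SE, adjusted p = 0.036, edgeR). That call was lost without the block (adjusted p = 0.39) and without any of 4 libraries, namely control replicate 1 (adjusted p = 0.050), control replicate 2 (adjusted p = 0.366), DAC replicate 1 and DAC + SFN replicate 2 (adjusted p = 0.054 each). Tyr had a mean of 786 CPM in control and 808 CPM in treated libraries (log2 difference 0.03 ± 0.041 SE, adjusted p = 0.589, edgeR).

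Proliferation genes were higher in the controls in 17 of 22 cases and lower in 1, with a median log2 difference treated minus control of -0.21. Of 22 hypoxia genes 7 were higher in the controls and none was lower. Over all genes, 8.91% were higher and 10.8% lower in the controls. The counts of these and the following lists come from the test with the block, without which 46 genes were called. NRF2 genes were lower in the controls in 18 of 29 cases and higher in 1, with a median difference of 0.36. Nqo1 had 7.45, 8.78 and 9.04 CPM in the controls and a treated mean of 26.3 CPM (log2 difference 1.37 ± 0.12 SE, adjusted p = 1.34e-05, edgeR). Gsta3 had 1.47, 1.16 and 0.822 CPM against 13.8 CPM (log2 difference 2.97 ± 0.23 SE, adjusted p = 6.21e-06, edgeR). Of the 3 treated groups, 2 had received sulforaphane.

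Many collagens and integrins were also lower in the controls, with 13 of 24 collagens and 10 of 16 integrins called lower and 0 and 1 called higher. Of 24 lysosomal genes 10 were lower in the controls and 1 was higher. Among the lower ones was the protease gene Ctsh with 6.95, 7.27 and 6.27 CPM against a treated mean of 16.98 CPM (log2 difference 1.24 ± 0.12 SE, adjusted p = 1.38e-05, edgeR). Ccnd1 had 233.1, 451.5 and 272.9 CPM in the controls against 753 CPM (log2 difference 1.16 ± 0.088 SE, adjusted p = 5.68e-06, edgeR). Lif, a cytokine, had 0.782, 2.32 and 1.18 CPM against 8.65 CPM (log2 difference 2.41 ± 0.17 SE, adjusted p = 4.74e-06, edgeR), and Ccl5 had 2.99, 2.15 and 4.16 CPM against 11.7 CPM (log2 difference 1.84 ± 0.19 SE, adjusted p = 2.47e-05, edgeR). Among list members that differed by more than 2-fold only H19 was higher in the controls, with 1.70, 0.215 and 10.7 CPM against 2.20 CPM (log2 difference -1.11 ± 0.23 SE, adjusted p = 0.0041, edgeR). Without the block, Ctsh, Ccl5, Nqo1 and Gsta3 were still called, while Ccnd1 (adjusted p = 0.105), Lif (adjusted p = 0.078) and H19 (adjusted p = 0.671) were not.

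Most genes without a count in the controls had none or few in the treated cells. Of the 8959 genes with no control count, 7018 had none in any of the 12 libraries. The other 1941 had at least 1 count in a treated library, and 7 of them had more than 10 in any one. Mmp1a, an interstitial collagenase, had the most with 23 counts in 1 library. Its treated means were 0.045, 0.565 and 0.014 CPM in replicates 1, 2 and 3, so it too was highest in replicate 2.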

How the data were processed

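RNA was sequenced from B16F10 cells in 12 libraries, with 3 replicates in each of 4 groups, and the 3 vehicle controls are described here. The gene lists and families, and the tests, were chosen with earlier results of these data known. Per the labels and the study's methods, the authors prepared stranded mRNA libraries, sequenced single reads of 75 bases, trimmed them with Trimmomatic 0.38 after FastQC 0.11.7, aligned them to mm10 with TopHat2 2.1.1 and counted uniquely aligned reads per gene with HTSeq. The annotation and the strand setting of the counting are not given in the sources used here. The authors deposited raw counts per gene symbol, 1 table per sample, without normalization. Groups and replicate numbers came from the sample labels. The controls held 19310971 to 23654567 counts, so 1 CPM stands for 19.3 to 23.6 counts.

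CPM were scaled by TMM in edgeR 4.0.16 (R 4.3.3). TPM used the merged exons of GENCODE release M21 on mm10, which covered 24088 of 24421 symbols (98.6%), and genes without a model were left out of TPM. The unique share is the percentage of stretches of 75 bases of a gene's exons that occur once in the genome. Promoters were taken from RefSeq. Named genes were the 20 with the highest mean TPM, members of the lists and families, the 20 with the widest spread among genes with a mean of at least 1 CPM and the 10 with the widest and the 10 with the narrowest among those of at least 50 CPM. The replicate number was tested in the 9 treated libraries with treatment in the model, for genes that reached 1 CPM in 3 or more of them. The controls were tested against the mean of the 3 treated groups with the replicate number as a block. Both used glmQLFTest, two-sided by construction, with Benjamini-Hochberg adjustment over all genes tested. The pairing by replicate number was checked on the deviations from the group means: all 18 pairs of same-numbered samples correlated, at 0.27 to 0.73, so the numbers were taken to pair the samples. On simulated data with 200 changed genes, the first test recovered 199 with 26 false calls among 11491 genes and the second 200 with 13 among 11530. In both, the false calls were a larger share of the calls than the threshold of 0.05. No control library was a copy of another. Alternatives were DESeq2 1.42.0, other scalings, filters, prior counts and thresholds, leaving out each library, and no block. Python 3.11.15 with pandas 2.3.3, numpy 2.4.6 and matplotlib 3.10.9 was used for the rest. The 9 treated libraries entered only as stated. Some members of the lists are not reported here.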

Additional observations from a re-analysis of the deposited data

How the results depend on the processing

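The number of expressed genes was 11055 to 11604 under the alternatives and the number without a count 9352 to 9956, both within 1.5 times of the reported counts. Of 36 genes whose TPM was recomputed, 15 kept their value within 1 SD in all settings. The other 21 moved with the length of the longest transcript in place of merged exons, by which Tyrp1 had 11741, Pmel 6607 and Dct 5441 TPM, and Trpm1 59.2 in place of 31.4 TPM. The count of genes with a spread above 1 was 150 to 329 when 1 control was left out, since a range over fewer libraries is narrower by construction. The replicate number called 1060 to 4066 genes in the treated libraries when 1 library was left out, and the cause was not tested. Of 29 genes followed in that test, 23 kept their side of the threshold in every setting. The share of wide-spread genes that were called was 57.2% with DESeq2, 72.1% without a filter, 80.6% for a spread above 1.5 and 51.7% to 67.1% with a library left out. The comparison of controls with treated groups depended most on the replicate block: without the pairing 46 genes were called, 10 higher and 36 lower in the controls, and 4 of 14 named genes kept their call in all settings. Leaving out 1 library gave 776 to 3134 calls, 301 to 1482 higher and 475 to 1652 lower. With a fold change above 2 in addition, 119 genes were called, 8 higher and 111 lower. DESeq2 with the block, other size factors and no filter kept these counts within 1.5 times. None of the 14 named genes changed the direction of its difference between controls and treated groups in these alternatives. The counts, shares and p-values of the replicate test carry no direction. Genes of 1 to 10 CPM rest on few counts, and 14.8% of them had a spread above 1.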
